A study of Homo sapiens with 18 samples.

Results

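Ankyrin repeat domain (ANKRD) genes were followed in 786-O, an established line of clear cell renal carcinoma, after knockdown of RBCK1, ANKRD35 or MITD1. Members were taken by a rule on the symbol, set with earlier results of these data known. It takes every gene whose symbol is ANKRD, a number and at most 1 letter, if protein coding in the RBCK1 and ANKRD35 tables. This gave 54 genes of the 58735 listed in each of those tables. All 54 are also among the 29928 symbols of the MITD1 table, which holds ANKRD19P in addition, a transcribed pseudogene in GENCODE 29. The symbol does not mark a single evolutionary family, and many genes with ankyrin repeats carry other names.

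The 18 libraries form 6 groups of 3. The shRBCK1 libraries have shcontrol as their control, the siANKRD35 libraries sicontrol_for_siANKRD35, and the siMITD1 libraries sicontrol_for_siMITD1, all from 786-O cells grown in RPMI-1640 medium with serum. No drug treatment or time after transfection is named. A single line was used. The columns of the ANKRD35 knockdown name a short hairpin where the sample titles name an siRNA, and the titles are followed here. RBCK1 encodes an E3 ubiquitin ligase, and the series title places ANKRD35 and MITD1 with it on an axis linked to sunitinib sensitivity. The labels do not tie replicates to separate cultures, and p-values here reflect the spread among these libraries alone, which could be technical.

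An ankyrin repeat is a short helix-turn-helix motif, and stacked repeats form a curved surface that binds other proteins. The repeats have no enzymatic activity of their own, so the role of a member follows from its other domains and its partners. ANKRD proteins include muscle stress proteins, chromatin coregulators, subunits of protein phosphatase 6, ubiquitin-binding endocytic adaptors and scaffolds of endosomal sorting.

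Expression is given as deposited FPKM, fragments per kilobase of a gene after scaling for library size, so that levels can be set side by side between genes. The 3 pairs of groups sit in 3 separately normalized tables, and tests were made only within a table. Library depth ran from 16346478 to 18648246 recovered reads in the RBCK1 table and from 17502646 to 19034974 in the ANKRD35 table. In the MITD1 table it was at least 12081871 to 13214245, counted over genes whose reads could be recovered. RBCK1 measured 30.8, 32.0 and 32.9 FPKM in the shRBCK1 libraries, against 487, 491.7 and 462 FPKM in the shcontrol libraries. MITD1 measured 2.43, 2.66 and 3.03 FPKM in the siMITD1 libraries, against 7.16, 7.42 and 7.83 FPKM in their control libraries. Both targets were lower in every knockdown library, and the exact two-sided permutation test gave p = 0.1 for each, the smallest that 3 against 3 allows. Of 8 renal tubule and carcinoma markers, 6 or 7 averaged at least 1 FPKM in every group, against 0 of 5 endothelial markers, 0 of 5 blood cell markers and 0 or 1 of 6 fibroblast markers. The summed level of the renal markers differed between tables. It was 1030 to 1380 FPKM in siANKRD35 libraries and 815 to 862 FPKM in their controls, against 302 to 389 FPKM in the other tables. CA9 was at 0 in every sicontrol_for_siANKRD35 library. These differences between tables were not tested.

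A change is the mean log2(FPKM + 1) of the knockdown libraries minus that of their controls, a scale that understates the change of low genes. A gene was tested where at least 3 of the 6 libraries of a table reached 1 FPKM, and called at a limma adjusted p under 0.05. Of the 54 members, 33 were tested in at least 1 comparison and 25 in all 3. The 21 members that were never tested include 5 that were listed at 0 in all 18 libraries, and 23 members reached 1 FPKM in all 18. Of 87 tested changes, 35 were called, and 22 members were called in at least 1 comparison. ANKRD1, ANKRD9 and ANKRD11 were called in all 3 comparisons, and 7 other members in 2.

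**Figure D1:**
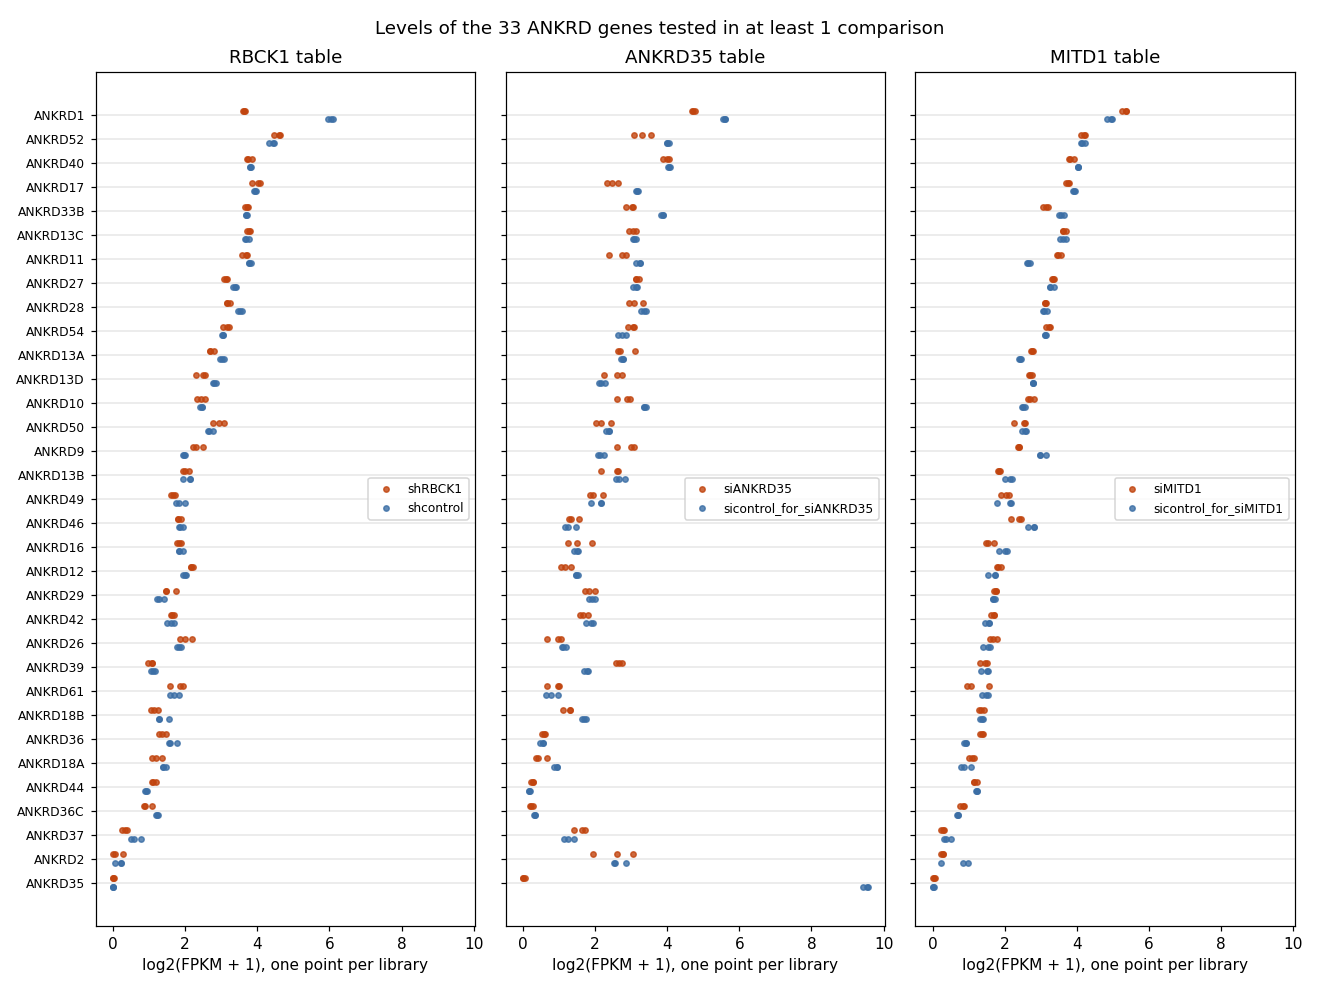
Levels of the 33 members tested in at least 1 comparison, as log2(FPKM + 1), with 1 point per library and 1 panel per table; in each row the knockdown points lie above the control points. ANKRD1 is the highest member in most groups, ANKRD35 is high only in the libraries of sicontrol_for_siANKRD35, and most other members lie close to their controls.

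Shares of called members were read against the share of all tested genes that was called in the same comparison. In shRBCK1 libraries 12 of 30 tested members were called, which is 40% of them, against 49.1% of all 12227 tested genes. Of the 12 members, 4 were higher, against 24.1% of all tested genes, and 8 were lower, against 24.9%. In siANKRD35 libraries 11 of 28 were called, 39.3% of them against 36.3% of all 11890 tested genes. Of these, 2 were higher, against 19.4% of all tested genes, and 9 were lower, against 16.9%, the target ANKRD35 among them. Without the target 10 of 27 members were called, 8 of them lower. In siMITD1 libraries 12 of 29 were called, 41.4% of them against 65.6% of all 10415 tested genes. Of the 12, 5 were higher, against 30% of all tested genes, and 7 were lower, against 35.6%.

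Knockdown and control libraries did not overlap for 7 members that were higher and 11 that were lower in shRBCK1 libraries, against 59% of all tested genes without overlap. For siANKRD35 these were 4 and 10 members, against 52.2% of all tested genes, and for siMITD1 7 and 8 members, against 70.4%.

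The members did not move together in one direction. Their median log2 change was −0.04 for shRBCK1, −0.13 for siANKRD35 and 0.01 for siMITD1, beside medians over all tested genes of 0.01, 0.03 and −0.03 in the same order. Called changes of at least 0.5 either way numbered 1 of 30 members for shRBCK1, against 9.94% of all tested genes, 9 of 28 for siANKRD35, the target included, against 16.4%, and 2 of 29 for siMITD1, against 17.8%. In the ANKRD35 table members were longer than the tested genes as a whole, with a median gene length of 6124 against 4567 bases. There the change fell with gene length across all tested genes (Spearman's rho −0.41, a description across genes, which are not independent replicates). With the trend over length removed, 9 members were called in siANKRD35 libraries, 2 higher and 7 lower. Over all tested genes 3320 were then called, which is 27.9%, with 1613 higher and 1707 lower. The 12 calls for shRBCK1 depended more on single libraries, with 7 left without shcontrol replicate 1 and 6 without shcontrol replicate 2. Calls over all tested genes fell from 6000 to 5119 and 4952 in the same fits. The count test on recovered reads (limma-voom) called 16 members for shRBCK1, 9 higher and 7 lower. It called 6864 of all tested genes, which is 56.1%, with 4191 higher and 2673 lower.

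**Figure D2:**
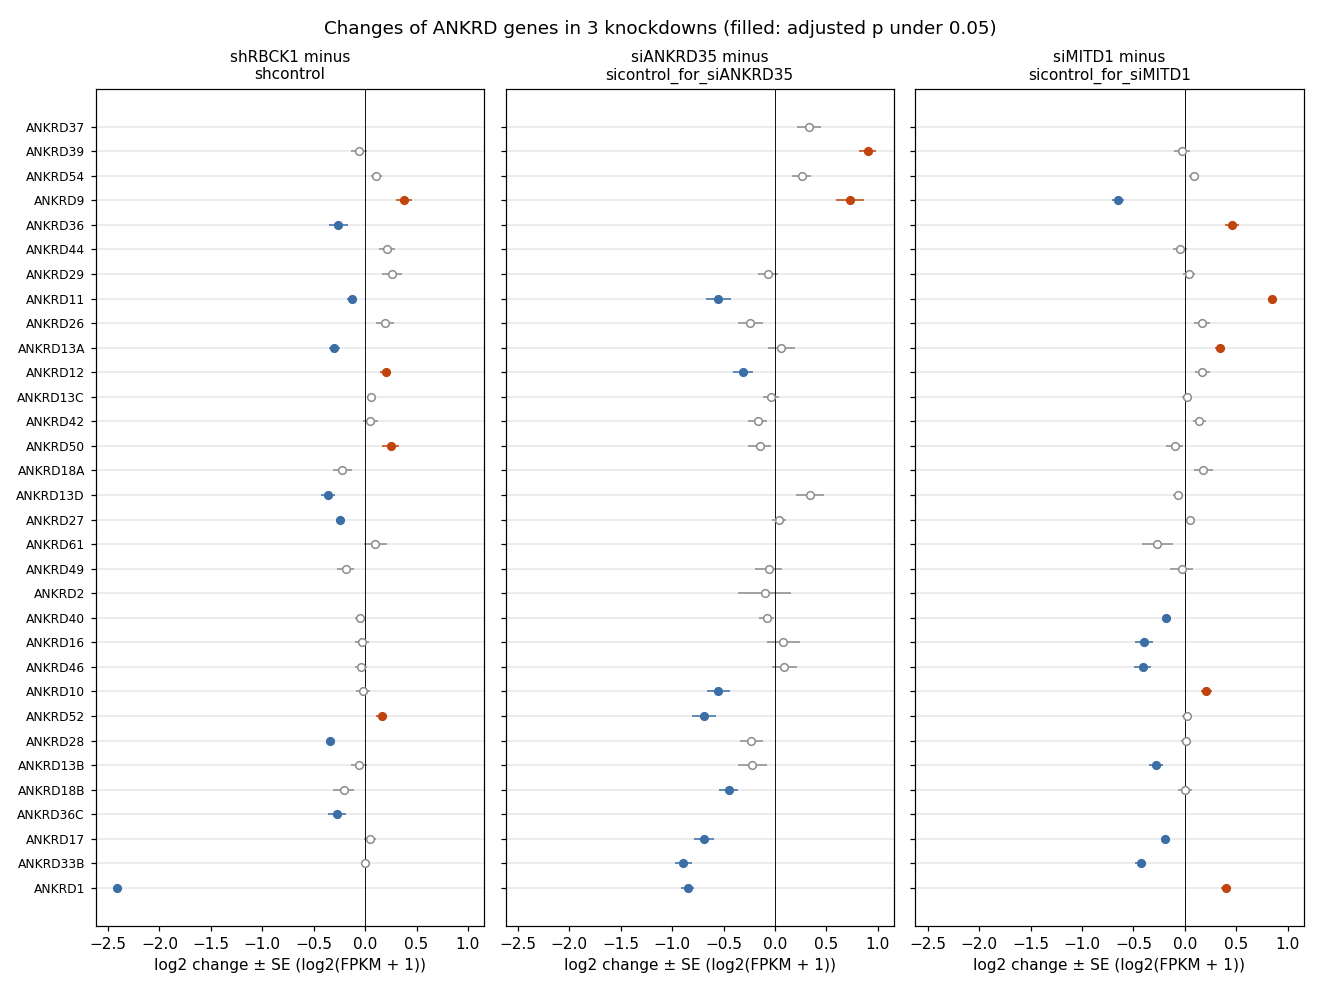
Log2 change with its SE of every tested member except ANKRD35 in the 3 comparisons, on one shared axis; filled points passed an adjusted p under 0.05 (red higher, blue lower) and open points did not. ANKRD1 in shRBCK1 libraries, at −2.41, lies apart from the other changes, and ANKRD1, ANKRD9 and ANKRD11 lie on different sides of 0 in different panels.

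ANKRD35 (ENSG00000198483, chromosome 1, 145866560 to 145885866 of GRCh38, minus strand) encodes an ankyrin repeat protein of little-known function. Its RNA measured 0, 0 and 0.0332 FPKM in the siANKRD35 libraries, against 753.2, 687.1 and 742 FPKM in sicontrol_for_siANKRD35. The siANKRD35 libraries hold 2 recovered reads in all and their controls 135649, a ratio of control over knockdown of 63394 after scaling for library size, with an exact 95% interval from 17549 to 523473 that covers counting error only. No other group came near the level of this control: in the other tables ANKRD35 was 0 in 8 of 12 libraries and at most 0.0392 FPKM in the rest. The level of the control group was the highest of any member in any group. The labels do not say whether this RNA came from the cell's own gene or from an introduced construct, and the files do not tell them apart, which limits what the control level and the ratio show about the gene. Every siANKRD35 change of another gene is read against this same control group, so the limit extends to those changes. The tables were normalized separately, and the difference between the control groups has no test.

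ANKRD1, which encodes a muscle ankyrin repeat protein that binds titin and acts as a transcriptional cofactor, fell in shRBCK1 and siANKRD35 libraries and rose in siMITD1 libraries. The gene (ENSG00000148677) lies on chromosome 10 at 90912096 to 90921276, on the minus strand, and is widely used as a readout of YAP and TEAD, a transcriptional coactivator and its DNA-binding partners. Its promoter window, 250 bases before to 50 bases after the RefSeq gene start, is shown because ANKRD1 had the largest change of any member that was not itself a target. It spans chr10:90921038-90921337 of GRCh38.p14 and is written along the minus strand, with 2 matches to the TEAD core GGAATG in capitals.
ANKRD1: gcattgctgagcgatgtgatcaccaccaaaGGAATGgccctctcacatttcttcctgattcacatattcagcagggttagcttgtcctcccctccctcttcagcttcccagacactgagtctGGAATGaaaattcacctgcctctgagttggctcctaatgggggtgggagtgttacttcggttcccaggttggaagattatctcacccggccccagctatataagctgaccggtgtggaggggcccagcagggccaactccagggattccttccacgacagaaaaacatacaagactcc
The motif, searched on both strands as GGAATG or CATTCC, occurred in 14% of 35116 RefSeq promoter windows of the same length. It occurred in 6 of 56 windows of ANKRD members (10.7%), which cover 42 member genes, and ANKRD1 was the only one of these with 2 matches in a window. A match is a description of the letters and not evidence of binding.

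ANKRD1 measured 11.7, 11.3 and 11.3 FPKM in shRBCK1 libraries, against 67.1, 61.9 and 65.6 FPKM in shcontrol libraries. Every knockdown library was far below every control library, and ANKRD1, the first of all members by level in shcontrol, was seventh in shRBCK1. On the log2 scale the change was −2.41 (SE 0.039, limma adjusted p = 9.62e-09). In siANKRD35 libraries it measured 25.5, 24.97 and 26.6 FPKM, against 45.9, 47.4 and 47.8 FPKM in their controls, again without overlap (log2 change −0.85, SE 0.065, limma adjusted p = 0.000621). In siMITD1 libraries the order was turned round, with 36.8, 40.3 and 39.7 FPKM against 27.4, 30.5 and 29.8 FPKM in their controls (log2 change 0.40, SE 0.049, limma adjusted p = 0.000127). The direction of all 3 changes held under every alternative that was run. The difference between the comparisons was not tested, since the tables were normalized separately.

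Other YAP and TEAD genes, listed for their shared link with ANKRD1, were lower in larger number than higher in each comparison. List counts here and below stand beside the share of all tested genes called: 49.1% for shRBCK1, 36.3% for siANKRD35 and 65.6% for siMITD1. List counts and values come from the fit in which the trend over gene length, seen for siANKRD35, was not removed. In shRBCK1 libraries 2 of 9 tested list genes rose and 6 fell. CTGF, a secreted matrix protein, measured 26.3 ± 0.594 FPKM in shRBCK1 libraries, against 79.9 ± 3.78 FPKM in shcontrol libraries (SD, n = 3 each here and below; log2 change −1.56, limma adjusted p = 1.44e-07). CYR61, another, measured 161 ± 3.9 FPKM in shRBCK1 libraries, against 396 ± 2.78 FPKM in shcontrol libraries (log2 change −1.29, limma adjusted p = 7.42e-08). In siANKRD35 libraries none of 10 rose and 4 fell, among them TEAD1, a DNA-binding TEAD factor, at 8.36 ± 1.35 FPKM, against 13.6 ± 0.124 FPKM in their controls (log2 change −0.65, limma adjusted p = 0.0054). In siMITD1 libraries, where ANKRD1 rose, none of 7 rose and 5 fell. WWTR1, which encodes the YAP paralogue TAZ, measured 29.3 ± 0.753 FPKM in siMITD1 libraries, against 50.4 ± 0.571 FPKM in their controls (log2 change −0.76, limma adjusted p = 2.51e-07). The median log2 change of the list was −0.28 for shRBCK1, −0.23 for siANKRD35 and −0.21 for siMITD1, beside 0.01, 0.03 and −0.03 over all tested genes.

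The other muscle ankyrin repeat genes were low in most libraries. ANKRD2, expressed mainly in skeletal muscle, measured 7.29, 2.88 and 5.11 FPKM in siANKRD35 libraries, against 6.25, 4.87 and 4.75 FPKM in their controls. The knockdown libraries spanned the controls and no change was called (log2 change −0.10, SE 0.26, limma adjusted p = 0.782). In the other 4 groups ANKRD2 stayed under 1 FPKM, from 0 to 0.97. ANKRD23, the third gene of this group, did not pass the filter in any table, and 66% of its 50-base windows also occur in its neighbour ANKRD39.

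**Figure D3:**
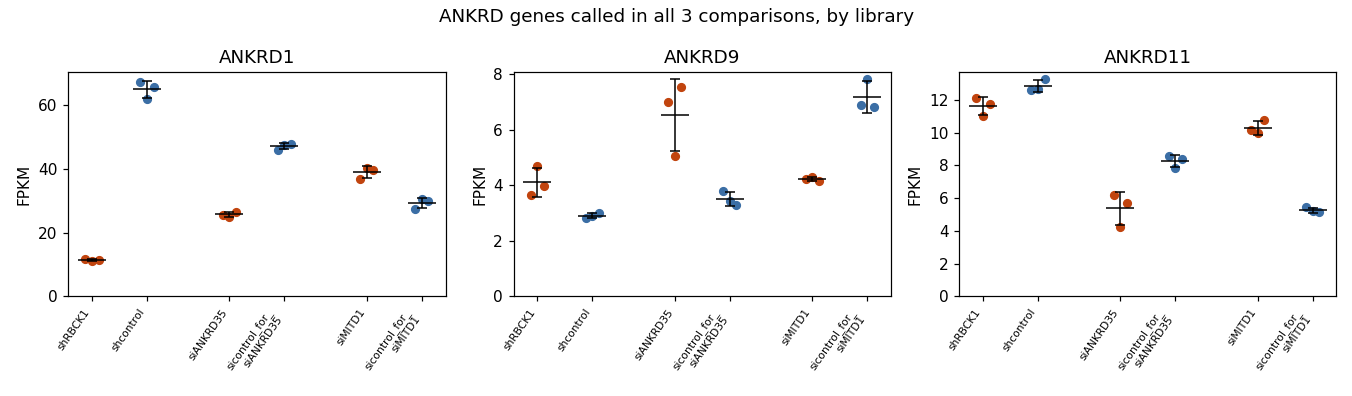
FPKM per library of the 3 members called in all 3 comparisons, with the mean as a bar and the SD as whiskers (n = 3) for each group; each knockdown stands left of its control. ANKRD1 is lower in shRBCK1 and siANKRD35 and higher in siMITD1, and ANKRD9 has the opposite order in each pair.

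ANKRD9, reported as a substrate receptor of cullin ubiquitin ligases that acts on the nucleotide synthesis enzyme IMPDH, moved against ANKRD1 in each comparison. It measured 3.65, 4.70 and 3.98 FPKM in shRBCK1 libraries, against 2.81, 2.91 and 2.99 FPKM in shcontrol libraries. In siANKRD35 libraries it measured 7.001, 5.07 and 7.53 FPKM, against 3.79, 3.45 and 3.28 FPKM in their controls. The siMITD1 libraries had 4.23, 4.29 and 4.15 FPKM, against 6.88, 7.84 and 6.84 FPKM in their controls. The groups did not overlap in any pair. The log2 changes were 0.38 (SE 0.079) for shRBCK1, 0.73 (SE 0.14) for siANKRD35 and −0.65 (SE 0.058) for siMITD1, with limma adjusted p = 0.00579, 0.00781 and 2.05e-05. All 3 calls held under every alternative. ANKRD9 lies on chromosome 14 at 102501760 to 102509799, minus strand, and 10% of its exonic bases overlap exons of the opposite strand, which matters where counting ignored strand.

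ANKRD11 and ANKRD12 encode large nuclear coregulators that bind p160 coactivators and histone deacetylases, and ANKRD11 is the gene of KBG syndrome. ANKRD11 (ENSG00000167522, chromosome 16, 89267619 to 89490561, minus strand) had its largest change in siMITD1 libraries, at 10.2, 9.97 and 10.7 FPKM against 5.44, 5.19 and 5.15 FPKM in their controls. That is 95.6% higher, without overlap (log2 change 0.85, SE 0.046, limma adjusted p = 1.19e-06). The call held under every alternative that could be fitted, which leaves out limma-voom, since reads of ANKRD11 could not be recovered there. In siANKRD35 libraries it measured 6.19, 4.27 and 5.69 FPKM, against 8.57, 7.83 and 8.42 FPKM in their controls. Every knockdown library was lower (log2 change −0.55, SE 0.12, limma adjusted p = 0.0145). This call was lost with the length trend removed (adjusted p = 0.229) and without replicate 1 or 3 of the control (0.0592 and 0.0571), within alternatives that ranged from 0.00263 to 0.229. In shRBCK1 libraries the change was small, at 12.1, 11.004 and 11.8 FPKM against 12.6, 12.7 and 13.3 FPKM in shcontrol libraries (log2 change −0.13, SE 0.045, limma adjusted p = 0.0428). That call was lost without any one of 5 libraries, all but shRBCK1 replicate 1, with adjusted p up to 0.129, and with quantile normalization, with no filter or on recovered reads.

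ANKRD12 was lower in level than ANKRD11 in every group. It measured 3.70, 3.49 and 3.48 FPKM in shRBCK1 libraries, against 2.97, 2.86 and 3.09 FPKM in shcontrol libraries (log2 change 0.20, SE 0.053, limma adjusted p = 0.0176). The groups did not overlap, and the call was lost without shRBCK1 replicate 1 (0.0535) or shcontrol replicate 2 (0.0604). In siANKRD35 libraries it measured 1.08, 1.53 and 1.27 FPKM, against 1.79, 1.91 and 1.78 FPKM in their controls (log2 change −0.31, SE 0.099, limma adjusted p = 0.0484). This call was at the threshold and was lost without any library except siANKRD35 replicate 2. It was also lost with a pseudocount of 0.1 (adjusted p = 0.055), with no filter (0.143), with quantile normalization (0.126) and with the length trend removed (0.591). In siMITD1 libraries ANKRD12 measured 2.54, 2.47 and 2.68 FPKM, against 2.32, 1.91 and 2.31 FPKM in their controls, and was not called (log2 change 0.17, SE 0.072, limma adjusted p = 0.0689).

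Of 7 coregulator partners of ANKRD11 and ANKRD12, 2 rose and none fell in shRBCK1 libraries, none rose and 5 fell in siANKRD35 libraries, and 2 rose and 2 fell in siMITD1 libraries. The shares of all tested genes called were 49.1%, 36.3% and 65.6% in the same order. In siANKRD35 libraries the corepressor NCOR1 measured 5.87 ± 0.0568 FPKM, against 10.1 ± 0.279 FPKM in their controls (log2 change −0.69, limma adjusted p = 0.00115). The median of the list was 0.08 for shRBCK1, −0.41 for siANKRD35 and −0.02 for siMITD1. The trend over gene length was not removed from these siANKRD35 values. The deacetylase HDAC3 measured 11.6 ± 0.531 FPKM in siMITD1 libraries, against 18.1 ± 0.816 FPKM in their controls (log2 change −0.60, limma adjusted p = 9.85e-06).

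The PP6 group, ANKRD28, ANKRD44 and ANKRD52, encodes ankyrin subunits that join the SAPS subunits of protein phosphatase 6, an enzyme of mitosis and DNA repair. ANKRD52 (chromosome 12, 56237807 to 56258391, minus strand) had the highest mean level of the 3 in every group of libraries, although in siANKRD35 libraries its values overlapped those of ANKRD28. It measured 10.7, 7.46 and 8.88 FPKM in siANKRD35 libraries, against 15.4, 14.8 and 14.9 FPKM in their controls. Each knockdown library was lower, and the call held under every alternative (log2 change −0.69, SE 0.12, limma adjusted p = 0.00608). In shRBCK1 libraries it was slightly higher, at 23.4, 21.2 and 23.9 FPKM against 20.9, 19.2 and 20.6 FPKM in shcontrol libraries (log2 change 0.16, SE 0.054, limma adjusted p = 0.0386). That call was lost without any one library other than shRBCK1 replicate 2, with adjusted p up to 0.124. In siMITD1 libraries it averaged 17.1 ± 0.607 FPKM, against 16.8 ± 0.794 FPKM in their controls, and was not called.

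ANKRD28 moved the other way in shRBCK1 libraries, at 8.42, 7.99 and 7.88 FPKM against 10.4, 10.2 and 10.99 FPKM in shcontrol libraries. The groups did not overlap, and the call held under every alternative (log2 change −0.34, SE 0.045, limma adjusted p = 0.000731). In siANKRD35 libraries it measured 6.74, 9.02 and 7.51 FPKM, against 9.35, 9.76 and 8.66 FPKM in their controls. Replicate 2 of the knockdown reached into the control range and no call was made (log2 change −0.23, SE 0.11, limma adjusted p = 0.134). Without that library ANKRD28 was called (log2 change −0.34, limma adjusted p = 0.00921), as were 6536 of all 11890 tested genes, against 4312 with it. With the length trend removed the ANKRD28 change was −0.01 (limma adjusted p = 0.956). ANKRD44 measured 1.29, 1.17 and 1.13 FPKM in shRBCK1 libraries, against 0.883, 0.939 and 0.867 FPKM in shcontrol libraries. It passed the filter there through the shRBCK1 libraries alone, since every shcontrol library was under 1 FPKM, and it was not called (log2 change 0.21, SE 0.078, limma adjusted p = 0.0579). In both groups of the ANKRD35 table ANKRD44 was at 0.222 FPKM or less.

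Of the 4 PP6 partners tested, 2 rose and none fell in shRBCK1 libraries, 1 fell in siANKRD35 libraries, and 1 rose and 2 fell in siMITD1 libraries. Among all tested genes 49.1%, 36.3% and 65.6% were called in these comparisons. The catalytic subunit gene PPP6C measured 16.8 ± 0.608 FPKM in shRBCK1 libraries, against 14.6 ± 0.827 FPKM in shcontrol libraries (log2 change 0.19, limma adjusted p = 0.015). It measured 18.1 ± 0.616 FPKM in siMITD1 libraries, against 25 ± 0.766 FPKM in their controls (log2 change −0.45, limma adjusted p = 1.7e-05). The list had a median of 0.07 for shRBCK1, −0.14 for siANKRD35 and −0.06 for siMITD1.

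The ANKRD13 genes encode proteins of endosomes and the endoplasmic reticulum. ANKRD13A, ANKRD13B and ANKRD13D carry ubiquitin-interacting motifs and bind ubiquitylated EGFR at the plasma membrane, and ANKRD13C acts in the endoplasmic reticulum on the biogenesis of G protein-coupled receptors. ANKRD13A measured 5.46, 5.41 and 5.92 FPKM in shRBCK1 libraries, against 7.17, 7.41 and 6.78 FPKM in shcontrol libraries (log2 change −0.30, SE 0.052, limma adjusted p = 0.0025). In siMITD1 libraries it measured 5.91, 5.65 and 5.72 FPKM, against 4.47, 4.30 and 4.24 FPKM in their controls (log2 change 0.34, SE 0.047, limma adjusted p = 0.00026). Neither pair overlapped, and the 2 changes had opposite signs.

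ANKRD13D was lower in shRBCK1 libraries, at 3.90, 4.59 and 4.82 FPKM against 6.20, 5.81 and 5.94 FPKM in shcontrol libraries (log2 change −0.36, SE 0.07, limma adjusted p = 0.00412). In siANKRD35 libraries it measured 5.66, 3.72 and 5.08 FPKM, against 3.84, 3.496 and 3.34 FPKM in their controls. One knockdown library lay within the control range and no call was made (log2 change 0.34, SE 0.14, limma adjusted p = 0.0892). Without siANKRD35 replicate 2 the change was 0.48 (limma adjusted p = 0.00301), within alternatives that ranged from 0.00301 to 0.227. That fit called 6536 of all 11890 tested genes, against 4312 with all libraries. ANKRD13B was called in siMITD1 libraries only among the 3 comparisons, at 2.65, 2.51 and 2.54 FPKM against 3.59, 3.43 and 2.99 FPKM in their controls (log2 change −0.28, SE 0.067, limma adjusted p = 0.00571). ANKRD13C was not called in any comparison; its group means were 12.6, 7.27 and 11.4 FPKM in shRBCK1, siANKRD35 and siMITD1 libraries, against 12, 7.51 and 11.3 FPKM in their controls.

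Of 7 endocytic partners of these proteins, none rose and 3 fell in shRBCK1 libraries, none rose and 1 fell in siANKRD35 libraries, and 3 rose and 3 fell in siMITD1 libraries. Beside these counts, 49.1%, 36.3% and 65.6% of all tested genes were called. EGFR, the epidermal growth factor receptor, measured 16.2 ± 0.689 FPKM in siANKRD35 libraries, against 34.7 ± 0.841 FPKM in their controls (log2 change −1.05, limma adjusted p = 0.00044). In siMITD1 libraries it measured 17.9 ± 0.213 FPKM, against 33.6 ± 0.5 FPKM in their controls (log2 change −0.87, limma adjusted p = 1.43e-07). CAV1, the main protein of caveolae, measured 131 ± 1.83 FPKM in shRBCK1 libraries, against 177 ± 3.81 FPKM in shcontrol libraries (log2 change −0.43, limma adjusted p = 3.08e-05). The median over these partners was −0.07 for shRBCK1, −0.08 for siANKRD35 and −0.09 for siMITD1.

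ANKRD27 and ANKRD50 act in endosomal recycling: ANKRD27, also called VARP, binds RAB32, RAB38, VAMP7 and the retromer, and ANKRD50 works with the retromer and SNX27. Both were called for shRBCK1 alone among the 3 comparisons, in opposite directions. ANKRD27 measured 7.50, 7.87 and 7.76 FPKM in shRBCK1 libraries, against 9.57, 9.37 and 8.95 FPKM in shcontrol libraries (log2 change −0.24, SE 0.042, limma adjusted p = 0.00252). ANKRD50 measured 7.49, 6.72 and 5.88 FPKM in shRBCK1 libraries, against 5.20, 5.31 and 5.88 FPKM in shcontrol libraries. The lowest knockdown library was level with the highest control library (log2 change 0.25, SE 0.082, limma adjusted p = 0.0389). The ANKRD50 call was lost without replicate 1 or 2 of either group, with adjusted p up to 0.109. Over all alternatives its limma adjusted p reached 0.126. Of 10 tested retromer, RAB and SNARE partners, 4 rose and 1 fell in shRBCK1 libraries, and 2 rose and none fell in siANKRD35 libraries. In siMITD1 libraries 2 of 9 rose and 3 fell. Calls over all tested genes were 49.1% for shRBCK1, 36.3% for siANKRD35 and 65.6% for siMITD1. RAB38, a RAB of lysosome-related organelles, measured 29.9 ± 2.6 FPKM in siANKRD35 libraries, against 20 ± 1.33 FPKM in their controls (log2 change 0.55, limma adjusted p = 0.00475). In siMITD1 libraries it measured 1.23 ± 0.51 FPKM, against 4.74 ± 0.451 FPKM in their controls (log2 change −1.38, limma adjusted p = 4.47e-05). Medians over the partners were 0.10 for shRBCK1, 0.09 for siANKRD35 and −0.06 for siMITD1.

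ANKRD17, ANKRD33B and ANKRD10 shared their largest decrease in siANKRD35 libraries. ANKRD17 encodes a large KH-domain protein related to Drosophila Mask. It measured 4.002, 5.27 and 4.53 FPKM in siANKRD35 libraries, against 8.23, 7.85 and 7.93 FPKM in their controls (log2 change −0.69, SE 0.097, limma adjusted p = 0.00302). In siMITD1 libraries the decrease was smaller, at 11.9, 12.3 and 12.6 FPKM against 13.8, 14.4 and 14.2 FPKM in their controls (log2 change −0.19, SE 0.039, limma adjusted p = 0.00274). Both pairs were free of overlap.

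ANKRD33B (chromosome 5, 10564330 to 10657816, plus strand) measured 7.38, 6.24 and 7.07 FPKM in siANKRD35 libraries, against 13.9, 13.7 and 13.3 FPKM in their controls. It fell by 49.3%, the largest decrease of any member after the target in that comparison on the log2 scale (−0.89, SE 0.08, limma adjusted p = 0.000951). In siMITD1 libraries it measured 8.18, 7.88 and 7.39 FPKM, against 10.4, 10.9 and 11.4 FPKM in their controls (log2 change −0.43, SE 0.051, limma adjusted p = 0.000111). In shRBCK1 and shcontrol libraries it averaged 12 ± 0.415 and 12 ± 0.137 FPKM. ANKRD10 measured 5.07, 6.45 and 6.88 FPKM in siANKRD35 libraries, against 9.21, 9.68 and 9.30 FPKM in their controls (log2 change −0.55, SE 0.11, limma adjusted p = 0.00907). It was higher in siMITD1 libraries, at 5.30, 5.46 and 6.04 FPKM against 4.87, 4.63 and 4.58 FPKM in their controls (log2 change 0.21, SE 0.057, limma adjusted p = 0.0102). All of these calls held under every alternative.

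ANKRD40, among the 4 highest members in every group, had levels from 12.1 to 15.8 FPKM over the 18 libraries. It was called for siMITD1 alone among the 3 comparisons, at 12.8, 13.1 and 14.2 FPKM against 15.3, 15.3 and 15.2 FPKM in the controls (log2 change −0.18, SE 0.044, limma adjusted p = 0.00694). ANKRD16, reported in mouse as a guard against errors of alanyl-tRNA synthetase, measured 1.88, 1.76 and 2.26 FPKM in siMITD1 libraries, against 3.14, 2.55 and 3.04 FPKM in their controls (log2 change −0.40, SE 0.087, limma adjusted p = 0.00364). ANKRD46 measured 4.42, 4.28 and 3.52 FPKM in the same libraries, against 5.22, 5.96 and 5.97 FPKM in the controls (log2 change −0.41, SE 0.081, limma adjusted p = 0.0021). None of these pairs overlapped. Part of the sequence of ANKRD16 and ANKRD46, 13.4% and 13.2% of 50-base windows, also occurs in pseudogenes (RPL12P28 and GAPDHP62), so their counts are less certain.

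ANKRD37 encodes a small protein whose gene is a known target of the hypoxia-inducible factors (HIF), transcription factors that are constantly active in VHL-deficient renal carcinoma. Its promoter window is shown because it held more matches to the HIF motif than the window of any other of the 42 member genes that matched. It spans chr4:185396591-185396890 of GRCh38.p14 on the plus strand, with 3 matches to the hypoxia response element core (ACGTG, or CACGT on the other strand) in capitals, of which 2 overlap as CACGTG.
ANKRD37: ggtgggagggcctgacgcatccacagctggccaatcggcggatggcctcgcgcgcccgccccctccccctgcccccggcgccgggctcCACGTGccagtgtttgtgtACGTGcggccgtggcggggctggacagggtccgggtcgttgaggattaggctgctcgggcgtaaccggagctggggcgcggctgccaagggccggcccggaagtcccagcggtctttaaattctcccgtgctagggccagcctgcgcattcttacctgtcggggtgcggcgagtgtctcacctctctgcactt
This motif occurred in 21.4% of all RefSeq promoter windows and in 9 of 56 member windows (16.1%), and ANKRD37 was the only one of the 42 member genes with 3 matches.

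ANKRD37 measured 2.30, 1.66 and 2.14 FPKM in siANKRD35 libraries, against 1.38, 1.19 and 1.66 FPKM in their controls. The lowest knockdown library lay just above the highest control library, and no call was made (log2 change 0.33, SE 0.12, limma adjusted p = 0.0669). Without siANKRD35 replicate 2 it passed, with a log2 change of 0.42 and a limma adjusted p of 0.0155. That fit called 6536 of all 11890 tested genes, against 4312 with all libraries. With the length trend removed the ANKRD37 change was 0.11 (limma adjusted p = 0.46). In the other tables it was below the filter, with 0.263, 0.183 and 0.322 FPKM in shRBCK1 libraries, against 0.705, 0.507 and 0.412 FPKM in shcontrol libraries. The siMITD1 libraries had 0.251, 0.227 and 0.179 FPKM, against 0.41, 0.3 and 0.245 FPKM in their controls. These low values were not tested. Exons of UFSP2 on the opposite strand overlap 35.2% of the exonic bases of ANKRD37. Of the other HIF genes, 4 of 8 tested rose and 1 fell in shRBCK1 libraries, 1 of 7 rose and 1 fell in siANKRD35 libraries, and 7 of 8 rose and 1 fell in siMITD1 libraries. The called shares of all tested genes were 49.1%, 36.3% and 65.6% in that order. NDRG1, a stress-responsive gene, measured 96.3 ± 1.13 FPKM in siMITD1 libraries, against 35.6 ± 0.133 FPKM in their controls (log2 change 1.41, limma adjusted p = 7.07e-09). VEGFA, the main angiogenic factor, measured 82.8 ± 1.63 FPKM in siMITD1 libraries, against 39.6 ± 0.399 FPKM in their controls (log2 change 1.05, limma adjusted p = 3.25e-08). In shRBCK1 libraries it measured 50.5 ± 1.38 FPKM, against 26.6 ± 0.254 FPKM in shcontrol libraries (log2 change 0.90, limma adjusted p = 8.25e-07). ADM fell there, to 25.7 ± 0.647 from 29.5 ± 0.869 FPKM (log2 change −0.19, limma adjusted p = 0.004). In siANKRD35 libraries EPAS1 fell, to 19.1 ± 1.19 from 38.1 ± 1.46 FPKM (log2 change −0.96, limma adjusted p = 0.000674). ADM rose in siANKRD35 libraries, to 47.9 ± 1.86 from 23.9 ± 2.02 FPKM (log2 change 0.98, limma adjusted p = 0.000802). The median log2 change of these HIF genes was 0.14 for shRBCK1, −0.11 for siANKRD35 and 0.58 for siMITD1.

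ANKRD26, a protein of the distal appendages of centrioles, was tested in all 3 tables and not called. Its group means were 3.07 ± 0.447 FPKM in shRBCK1, 0.876 ± 0.245 in siANKRD35 and 2.21 ± 0.218 in siMITD1 libraries, against 2.56 ± 0.143, 1.2 ± 0.0817 and 1.85 ± 0.188 FPKM in their controls. Of 5 other distal appendage genes tested, none rose and 2 fell in shRBCK1 libraries, none was called in siANKRD35 libraries, and 4 rose and none fell in siMITD1 libraries. All tested genes had called shares of 49.1%, 36.3% and 65.6% in these comparisons. SCLT1, an appendage protein, measured 5.96 ± 0.371 FPKM in siMITD1 libraries, against 4.06 ± 0.325 FPKM in their controls (log2 change 0.46, limma adjusted p = 0.000305). Medians over the appendage genes were −0.07 for shRBCK1, −0.08 for siANKRD35 and 0.31 for siMITD1.

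For several members reads cannot be assigned with certainty, since near-identical or overlapping genes share their sequence. Of the 54 genes, 11 share at least 10% of their 50-base windows with another gene and 28 share none. ANKRD39 shares 53.8% with ANKRD23, and exons of ANKRD23 on the same strand overlap 56.8% of its exonic bases. With that limit, ANKRD39 measured 5.31, 4.94 and 5.75 FPKM in siANKRD35 libraries, against 2.49, 2.41 and 2.27 FPKM in their controls. This was the largest increase among the members (log2 change 0.90, SE 0.082, limma adjusted p = 0.000966), it came without overlap, and it held under every alternative. ANKRD23 itself was at 0.0746 FPKM or less in both groups of that table.

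ANKRD36, ANKRD36B and ANKRD36C share 45.9%, 49.4% and 36.7% of their windows, mostly with one another. ANKRD36 measured 1.63, 1.503 and 1.56 FPKM in siMITD1 libraries, against 0.887, 0.825 and 0.885 FPKM in their controls (log2 change 0.46, SE 0.067, limma adjusted p = 0.000346). It passed the filter there through the siMITD1 libraries alone, since every control library was under 1 FPKM. In shRBCK1 libraries it was lower, at 1.76, 1.40 and 1.58 FPKM against 1.97, 1.92 and 2.40 FPKM in shcontrol libraries (log2 change −0.26, SE 0.089, limma adjusted p = 0.043). ANKRD36C measured 1.11, 0.821 and 0.867 FPKM in shRBCK1 libraries, against 1.38, 1.32 and 1.29 FPKM in shcontrol libraries (log2 change −0.27, SE 0.088, limma adjusted p = 0.0354). ANKRD36C reached 1 FPKM in all shcontrol libraries and in 1 shRBCK1 library. The groups did not overlap, but both shRBCK1 calls were lost without any one library other than shRBCK1 replicate 1, with adjusted p up to 0.129 and 0.0997. Over all alternatives the limma adjusted p reached 0.137 for ANKRD36 and 0.125 for ANKRD36C. ANKRD18B, which shares 25.3% of its windows with ANKRD18A and other copies, measured 1.15, 1.46 and 1.49 FPKM in siANKRD35 libraries, against 2.13, 2.23 and 2.35 FPKM in their controls (log2 change −0.45, SE 0.093, limma adjusted p = 0.0104).

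Of 33 tested members, 11 were not called in any comparison. ANKRD54, a nuclear shuttling partner of the kinase LYN, was among the closest to the threshold, at 7.25, 6.51 and 7.44 FPKM in siANKRD35 libraries, against 5.75, 5.24 and 6.29 FPKM in their controls. Those groups did not overlap (log2 change 0.26, SE 0.09, limma adjusted p = 0.062). Without siANKRD35 replicate 2 the change was called (limma adjusted p = 0.0162), within alternatives that ranged from 0.0162 to 0.218. That fit called 6536 of all 11890 tested genes, against 4312 with all libraries. A missed threshold does not show that a gene was the same in both groups.

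**Figure D4:**
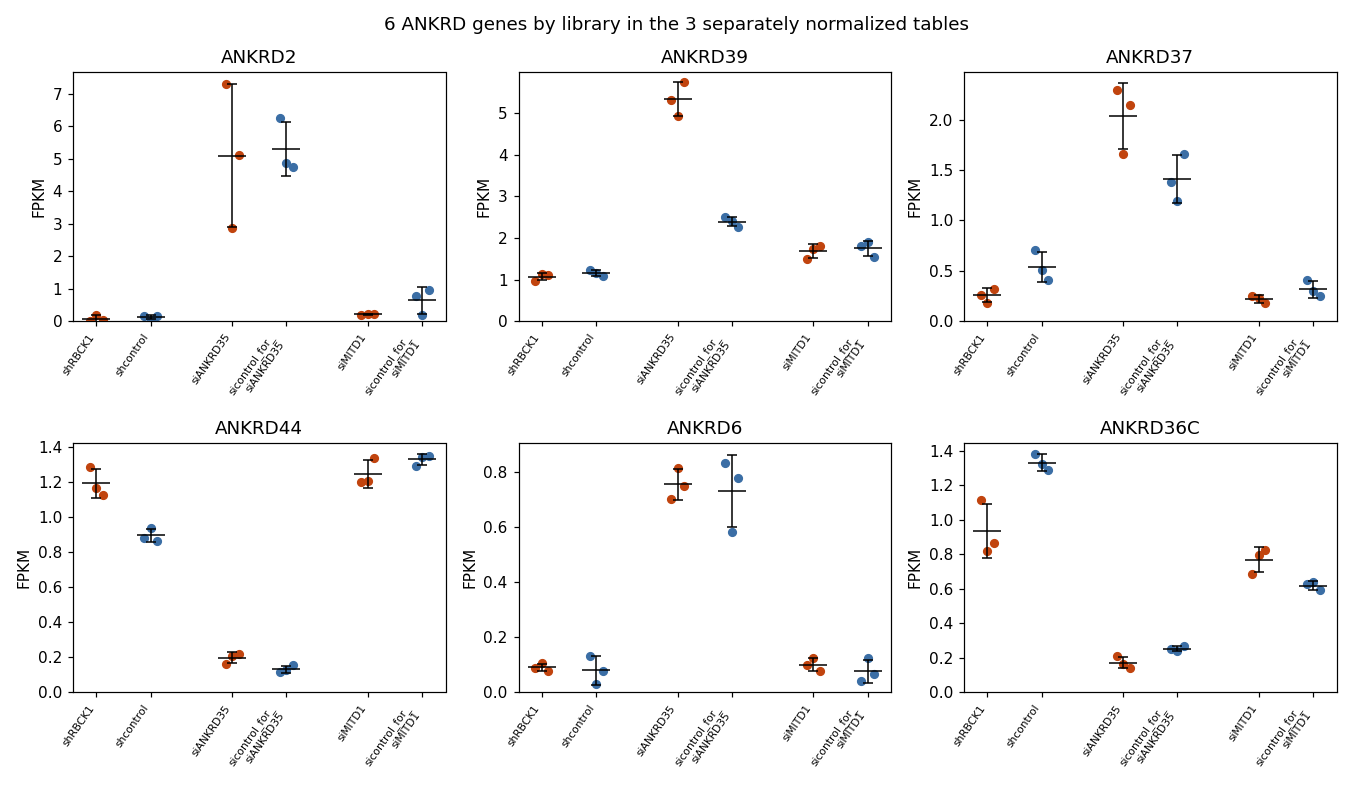
FPKM per library of 6 members in the 3 separately normalized tables, with the mean as a bar and the SD as whiskers (n = 3); each knockdown stands left of its control. ANKRD2, ANKRD39, ANKRD37 and ANKRD6 are highest in the ANKRD35 table, and ANKRD44 and ANKRD36C are lowest there, in knockdown and control alike.

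The level of some members differed more between tables than between knockdown and control. ANKRD6, known as Diversin, a regulator of Wnt signalling, had 0.705, 0.816 and 0.75 FPKM in siANKRD35 libraries, against 0.835, 0.584 and 0.78 FPKM in their controls. In the other 4 groups it was at most 0.134 FPKM. ANKRD36C was at most 0.272 FPKM in the ANKRD35 table and at least 0.591 FPKM in the others. These levels stand side by side with no test, since no sample links the tables.

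Among the 21 members never tested, 16 were above 0 in at least 1 library, and the highest single value was 1.57 FPKM, of ANKRD36B. The 5 listed at 0 in all 18 libraries were ANKRD30A, ANKRD33, ANKRD34C, ANKRD60 and ANKRD66. ANKRD30A is a breast differentiation antigen. At these depths a listed 0 does not show that a gene is silent. The pseudogene ANKRD19P, listed in the MITD1 table alone, had 0.0878, 0.132 and 0.112 FPKM in siMITD1 libraries, against 0.0479, 0.0438 and 0.0716 FPKM in their controls, and was not tested.

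Ankyrin repeat proteins with other names gave a comparison for the family. Of 101 listed, 77 were tested for shRBCK1, of which 17 rose and 21 fell (median log2 change −0.00). For siANKRD35 7 of 77 rose and 24 fell (median −0.10), and for siMITD1 21 of 73 rose and 25 fell (median −0.02). Beside these counts, 49.1% of all tested genes were called for shRBCK1, 36.3% for siANKRD35 and 65.6% for siMITD1. By direction, 24.1%, 19.4% and 30% of all tested genes rose and 24.9%, 16.9% and 35.6% fell, in the same order. Neither the difference from all tested genes nor that from the ANKRD members was tested. CDKN2C, a cyclin-dependent kinase inhibitor, measured 34.6 ± 2.15 FPKM in shRBCK1 libraries, against 15.9 ± 0.341 FPKM in shcontrol libraries (log2 change 1.08, limma adjusted p = 2.86e-06). CDKN2B, another inhibitor of that class, measured 2.26 ± 0.195 FPKM in siANKRD35 libraries, against 6.84 ± 0.344 FPKM in their controls (log2 change −1.27, limma adjusted p = 0.00044).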

How the data were processed

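RNA-seq libraries of 786-O cells took their groups and replicate numbers from the sample titles. The kit was directional, per the labels' protocols, and total RNA was made into libraries with it. Per the submitters' processing notes the build was mm10, a mouse build, whereas the tables list human genes: 58724 of 58735 identifiers have coordinates in GENCODE 29 (GRCh38), all 54 members among them. The aligner, the counting tool and whether strand was used are not given in the sources used here. Values in FPKM were made and deposited by the authors and were used as given; 6 further value columns match none of the samples and were left out. Reads per gene were recovered from the steps between values: 100% of values were whole within 0.01 reads in the RBCK1 and ANKRD35 tables, and 91.9% to 92.2% in the MITD1 table, where 51 of 55 members have recovered reads.

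Replicates were compared before averaging. No 2 libraries of a group agreed within sampling noise (chi-square per gene of 2.12 or more), and the lowest correlation within a group was 0.97 (Pearson's r across genes).

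Each comparison was fitted with limma-trend 3.58.1 (R 4.3.3) on log2(FPKM + 1), using the 6 libraries of one table and no replicate block, for genes that reached 1 FPKM in 3 or more libraries. Tests were two-sided, with Benjamini-Hochberg adjustment over all tested genes and a threshold of 0.05. The fit was also run on simulated counts with a single fixed spread, which need not equal the spread of these libraries, and no result rests on it. Alternatives were a pseudocount of 0.1, no filter, a filter in all 6 libraries, median-ratio scaling, quantile normalization, removal of the trend over gene length, limma-voom on recovered reads, a replicate block, and leaving out each library.

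The members and the gene lists were chosen with earlier results of these data known, so no list is independent evidence. Values are given for members called with a log2 change of at least 0.3, the highest members, those that share a function or sequence with them, and those at 0 in one table and above 1 FPKM in another. Outside the family they are given for the targets and for genes among the 2 with the smallest adjusted p per list and comparison. The gene of such a pair left unnamed can go the other way. Examples are RAB32 and PPP6R2 for siMITD1 (log2 changes 0.44 and 0.43), OSTF1 for siANKRD35 (1.16) and NFKBIE for shRBCK1 (−0.94). Calls under 0.3 and members near the threshold were named after their values were seen. Shared sequence was counted as 50-base windows of GENCODE 29 transcripts. Promoter windows come from RefSeq (GRCh38.p14). Intervals cover counting error only.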

Additional observations from a re-analysis of the deposited data

Results flagged for a closer look

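For 8 members the groups did not overlap in 2 comparisons and the knockdown libraries lay on opposite sides of their controls. Of the members tested in both tables, this held for 2 of 25 (8%) between shRBCK1 and siANKRD35, against 13.6% of all 10637 genes tested in both. Between shRBCK1 and siMITD1 it held for 5 of 29 (17.2%), against 23.1% of 10021 genes, and between siANKRD35 and siMITD1 for 5 of 25 (20%), against 22.8% of 9405 genes. None of these differences was tested, since the tables were normalized separately. Each value is the first log2 change minus the second.

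ANKRD1 differed by −2.81 between shRBCK1 and siMITD1 and by −1.25 between siANKRD35 and siMITD1. ANKRD9 differed the other way, by 1.03 between shRBCK1 and siMITD1 and by 1.37 between siANKRD35 and siMITD1. ANKRD11 differed by −0.98 between shRBCK1 and siMITD1 and by −1.40 between siANKRD35 and siMITD1. ANKRD10 differed by −0.76 between siANKRD35 and siMITD1. ANKRD12 differed by 0.50 between shRBCK1 and siANKRD35 and by −0.47 between siANKRD35 and siMITD1. ANKRD13A differed by −0.64 and ANKRD36, whose reads are shared with near copies, by −0.72 between shRBCK1 and siMITD1. ANKRD36 passed the filter of the siMITD1 comparison through the siMITD1 libraries alone. ANKRD52 differed by 0.86 between shRBCK1 and siANKRD35.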

How the results depend on the processing

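No called member changed direction under any alternative, and 6 of 12 calls for shRBCK1, 9 of 11 for siANKRD35 and 12 of 12 for siMITD1 held in every one that could be fitted. For shRBCK1 the 12 calls became 7 of 47 members with no filter, where 4984 of 31694 genes were called. The member calls ranged from 6 to 11 with 1 library left out, while calls over all genes ranged from 4952 to 5471, against 6000. For siANKRD35 the 11 calls ranged from 9 to 16 with 1 library left out. The 16 came without siANKRD35 replicate 2, where 6536 of all 11890 tested genes were called. For siMITD1 the 12 ranged from 12 to 13, while calls over all genes ranged from 6324 to 6432, against 6835. The uncalled ANKRD2, at −0.10 in siANKRD35 libraries, ranged from −0.36 to 0.19 with 1 library left out, with 0.19 without siANKRD35 replicate 2 and 0.00 without replicate 1 of the control. Over all genes voom moved the share of calls that were higher from 49.2% to 61.1% for shRBCK1 and from 53.5% to 39.1% for siANKRD35, and no scaling moved the median of all genes by over 0.1. No filter gave 3053 calls over all genes for siANKRD35, and leaving out 1 library 2267 to 6536, against 4312. The cause of these shifts was not tested.

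Deviations of same-numbered libraries correlated at −0.01 to 0.03 for shRBCK1, −0.09 to 0.18 for siANKRD35 and −0.00 to 0.11 for siMITD1. No correlations of differently numbered libraries stand beside these, so they do not settle whether the numbers pair the libraries. With the replicate block 9, 10 and 12 members were called, beside 5347 of 12227, 4139 of 11890 and 6859 of 10415 tested genes. The shRBCK1 calls of ANKRD11, ANKRD36, ANKRD36C and ANKRD50 then had adjusted p = 0.0684, 0.058, 0.058 and 0.0769, ANKRD29 passed (0.0377), and the siANKRD35 call of ANKRD12 had 0.0653. The library depth limits members under 1 FPKM, which were not tested.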
